A study of Mus musculus with 6 samples.

Results

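Mouse genes listed on the array under a clone or prediction name were followed in the myocardium of Clk4-cKO mice. These are the genes whose symbol ends in Rik, which come from the RIKEN collection of full-length cDNAs, or is Gm followed by a number, which marks a gene predicted from the genome. On the array 7960 of the 56605 non-control features carried such a symbol, leaving out features whose identifier belongs to the array's separate A_30_P series. A feature is 1 designed 60-base oligonucleotide, and 1340 of them, from 1177 genes, were flagged well above background in every animal of NEXN-WT, of NEXN-S437E or of both, and make up the set described here. They were 834 features with a Rik symbol and 506 with a Gm symbol.

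Both groups consisted of male C57BL/6J mice in which Clk4, the gene of the CDC-like kinase 4, carried loxP sites and was deleted after tamoxifen by the α-MHC-MerCreMer transgene. The α-MHC promoter drives Cre in cardiomyocytes, so other cells of the heart keep an intact gene. One group (NEXN-WT, 3 animals) received an adeno-associated virus encoding wild-type nexilin and the other (NEXN-S437E, 3 animals) a virus encoding the phosphorylation-mimic S437E mutant of nexilin, an actin-binding protein of the Z-disc. Total RNA was hybridised to 1-colour arrays, 1 per animal. The comparison asked which transcripts differ when the virus supplies the mimic in place of wild-type nexilin, in hearts that keep their own Nexn gene. No group without the deletion was on these arrays.

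Such names cover several kinds of transcript. Some are long non-coding RNAs (lncRNAs), which are transcribed and spliced much like mRNAs but carry no long open reading frame, and which are often made near, or antisense to, a protein-coding gene. Others are pseudogenes, which are copies of genes that no longer encode a full protein, and others are protein-coding genes that have since been given a proper name. In the heart the best known example of an antisense lncRNA is Mhrt, which is made within the cardiac myosin heavy chain locus.

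Values are log2 of the background-subtracted signal minus the 75th percentile of the same array, so 0 is the level of that percentile. Each log2 fold change is NEXN-S437E minus NEXN-WT. A transcript is called higher or lower when it passed 2-fold and an unadjusted p of 0.05 in limma, the thresholds the study used, and adjusted p-values are Benjamini-Hochberg values over all 22998 features detected in at least 1 group.

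NEXN-WT 1 stood apart and differed from the other NEXN-WT arrays by a mean of 0.38 and 0.44 (absolute log2 difference) and from the NEXN-S437E arrays by 0.50 to 0.56, whereas NEXN-WT 2 and NEXN-WT 3 differed by 0.25. The 75th percentile signal was 154 to 273 units in NEXN-WT and 110 to 160 in NEXN-S437E, and 41.9% to 47.8% of spots were well above background, with no saturated spot. Marker genes of other cells moved with the groups: 3 of 6 fibroblast markers and 4 of 5 T and NK cell markers were called lower, with a summed log2 level of 9.28 to 9.89 in NEXN-WT and 8.81 to 8.91 in NEXN-S437E for fibroblasts and of 2.44 to 3.37 and 0.52 to 0.91 for T and NK cells. Of 4 B and plasma cell markers Jchain alone was detected and was called lower, Cd79a and Ms4a1 being among those below background. All 6 cardiomyocyte markers were detected and none was called, with a summed level of 10.07 to 10.66 in NEXN-WT and 10.88 to 10.94 in NEXN-S437E. No macrophage, endothelial or erythroid marker was called. In RNA of a whole tissue, fewer cells of a type and less RNA per cell cannot be told apart, and the part of these markers in the results below was not tested. The Nexn features differed by 0.02 and 0.14 and the Clk4 feature seen on all 6 arrays by 0.13 (log2, none called). Since both groups carry the deletion, Clk4 does not separate them.

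The array's own oligonucleotides show what was read for each transcript. Shown here, 5′ to 3′ and in the sense of the transcript, are those of 8 non-coding members to which the results below return. They were picked after their values were seen, and capitals mark the polyadenylation signal where one is present.
Gm4956: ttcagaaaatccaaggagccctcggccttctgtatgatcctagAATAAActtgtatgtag
Gm31251: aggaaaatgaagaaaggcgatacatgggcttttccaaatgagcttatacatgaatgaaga
Gm19689: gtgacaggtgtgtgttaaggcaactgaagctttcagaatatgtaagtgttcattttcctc
D630045M09Rik: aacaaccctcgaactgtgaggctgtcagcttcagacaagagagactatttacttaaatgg
Gm30873: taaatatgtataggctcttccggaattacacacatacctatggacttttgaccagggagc
Gm36703: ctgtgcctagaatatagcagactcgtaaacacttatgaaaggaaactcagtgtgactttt
Gm19522: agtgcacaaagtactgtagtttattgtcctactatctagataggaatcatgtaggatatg
Gm15867: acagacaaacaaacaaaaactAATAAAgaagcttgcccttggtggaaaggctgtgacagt

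In the mm9 coordinates of the array these lie at chr1:21275328-21275387 on the minus strand for Gm4956, chr14:55610280-55610339 on the plus strand for Gm31251 and chr17:83433019-83433078 on the minus strand for Gm19689. D630045M09Rik lies at chr13:73482347-73482406 on the minus strand and Gm30873 at chr7:91496295-91496354 on the plus strand. Gm36703 lies at chr13:103121992-103122051 on the plus strand, Gm19522 at chr16:42884646-42884705 on the minus strand and Gm15867 at chr1:194682382-194682440 on the plus strand. The strand was read from the order of the array's start and end, which gave the RefSeq strand of the gene in 99.2% of 33248 features.

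The hexamer AATAAA or its variant ATTAAA, the signals that direct cleavage and polyadenylation near the end of a transcript, was present in the sense strand of 246 of the 1340 members (18.4%), against 15.5% of all 22998 detected features and 13.4% of all features on the array. On the other strand these letters occurred in 7.09%, 6.78% and 6.36%. Among the members 21.4% of lncRNAs and 14.6% of protein-coding genes held one. The median GC content was 43.3% both in the members and in all detected features.

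Gene IDs, symbols or synonyms matched 1097 of the 1340 members to RefSeq, and 191 of them now carry another symbol, which in 189 is no longer of the Rik or Gm kind. By RefSeq type 504 were lncRNAs, 478 protein-coding and 104 pseudogenes, while 254 were of another type or unmatched. Coordinates were given for 1332, of which 681 lay on the plus and 651 on the minus strand and 48 spanned more than 60 bases, so that their oligonucleotide crosses a splice junction or another gap.

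Because the members were chosen by their signal over background in the groups compared, how often they were seen in each group is a description of that choice. Most (1133 members, 997 genes) were well above background on all 6 arrays. Of those seen on all 3 NEXN-WT arrays, 101 were also seen on 2 NEXN-S437E arrays, 32 on 1 and 19 on none. In the reverse direction, 39 were seen on 2 NEXN-WT arrays, 12 on 1 and 4 on none. Just outside the choice were 191 features seen on 2 arrays of their better group, with a median log2 level of -3.38, close to the -3.42 of the 23 members seen in 1 group only. The members on all 6 arrays had a median level of -0.68. The remaining 6429 features, never seen on 2 arrays of a group, had a median of -5.45.

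The 1133 members seen on all 6 arrays allow the groups to be compared on features that did not pass through 1 group alone. Of these, 19 (1.68%) were called, 12 higher (1.06%) and 7 lower (0.618%). Among all 21110 features seen on all 6 arrays 1.62% were called, 0.483% higher and 1.14% lower. The share of called members was thus near that of all features, while the calls were split 12 to 7 in favour of NEXN-S437E in the members and 102 to 240 in the opposite sense in all features. The members' split depended on the processing, being 10 to 9 with quantile normalization and on the study's own normalized values, and 1 to 4 with normexp background correction. Over all features seen on all 6 arrays, 271 of 360 calls were lower with quantile normalization and likewise on the study's own values. With normexp 143 of 166 were lower. With normexp 4 of all 45 called members kept their call. An unadjusted p under 0.05 was reached by 236 members (20.8%) and by 16.2% of all features. No member passed an adjusted p of 0.05 in limma, with a smallest value of 0.0774, against 0.0947% of all features, and the methods' t-test on the same values gave none either. The groups did not overlap in 357 members (31.5%) and in 27.9% of all features. The called members depended on single arrays, numbering 11 (3 lower) without NEXN-WT 1, 37 without NEXN-WT 2 and 38 without NEXN-WT 3. Over all features the same omissions gave 183, 514 and 608.

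**Figure D1:**
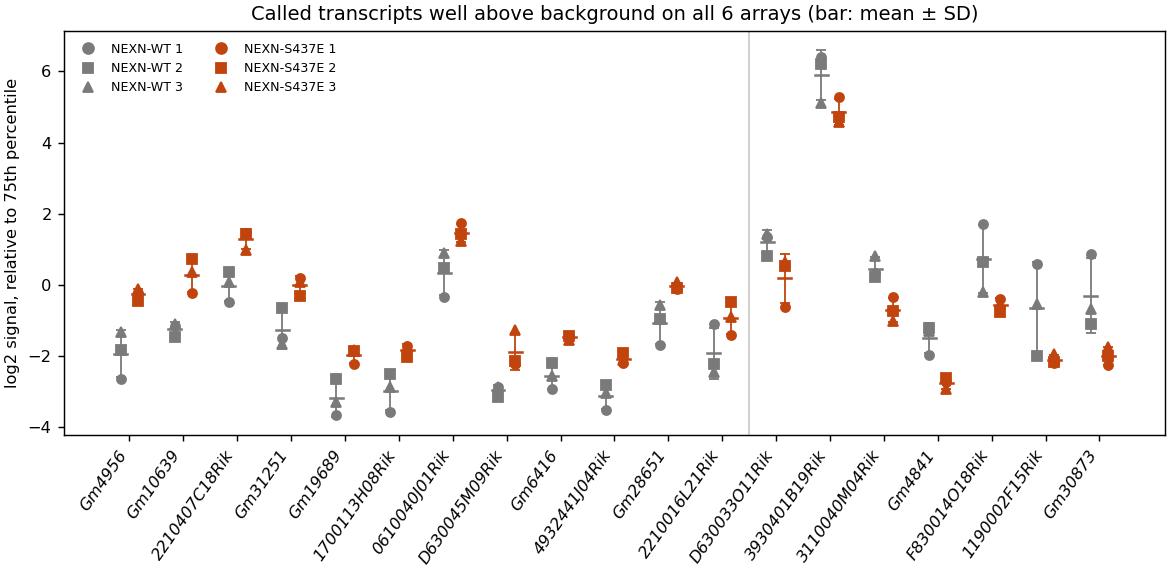
Each point is the log2 signal of 1 array relative to its 75th percentile, in grey for NEXN-WT and orange for NEXN-S437E, for the 19 called features seen on all 6 arrays, with bars for the mean ± SD of 3 animals and a vertical line between the 12 higher and the 7 lower. The groups separate in 16 of the 19, and the NEXN-WT points of 1190002F15Rik and Gm30873 spread widest.

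Among members seen on all 6 arrays, the largest increases were in 2 transcripts beside genes of the glutathione S-transferase alpha family, enzymes that conjugate glutathione to reactive compounds. Gm4956, a transcribed pseudogene, was at -2.64, -1.83 and -1.34 in NEXN-WT and at -0.22, -0.44 and -0.13 in NEXN-S437E. All 3 NEXN-S437E values lay above every NEXN-WT value, and the log2 fold change was 1.67 (SE 0.31, 3.19-fold, adjusted p = 0.0916). Its feature lies 20080 bases from the nearest one of Gsta3, on the opposite strand, and the 2 detected Gsta3 features differed by 0.75 and 0.74 (SE 0.19 and 0.20), below the 2-fold threshold.

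Gm10639, a protein-coding gene on chromosome 9 (chr9:78153243-78153302, plus strand), read -1.17, -1.46 and -1.10 in NEXN-WT and -0.22, 0.73 and 0.36 in NEXN-S437E. The groups did not overlap, and the difference was 1.53 (SE 0.25, 2.90-fold, adjusted p = 0.0790). A feature of Gsta2, 25554 bases away, moved by 1.23 (SE 0.32). It was well above background on only 2 of the 3 NEXN-WT arrays, so that difference is not exact. The oligonucleotides of Gm10639 and Gsta2 were 96.7% identical over 60 bases, and which of these genes each feature read is uncertain. Gsta4, a further member of the family 105899 bases from Gm10639, differed by 0.58 (SE 0.19, not called).

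At the cardiac myosin heavy chain locus, Gm31251, a lncRNA by RefSeq, was at -1.49, -0.66 and -1.65 in NEXN-WT and at 0.18, -0.32 and 0.08 in NEXN-S437E. Every NEXN-S437E array was above every NEXN-WT array, with a log2 fold change of 1.25 (SE 0.28, adjusted p = 0.129), which stayed a call with any 1 array left out. The array describes its source cDNA as an adult cardiac myosin heavy chain clone, but the feature lies on the plus strand, opposite to Myh6 and Myh7. Mhrt, the lncRNA of the same strand 17097 bases away, differed by 0.88 (SE 0.27) and Myh6, the adult α-myosin heavy chain gene, by 0.71 and 0.58 (SE 0.26 and 0.16) at its 2 features. Without NEXN-WT 1 the Myh6 differences were 0.42 and 0.47. Myh7, the β-myosin heavy chain gene that is raised in stressed adult ventricle, was at 7.73, 6.10 and 6.89 in NEXN-WT and at 4.79, 4.21 and 4.74 in NEXN-S437E. It was called lower, with a log2 fold change of -2.33 (SE 0.38). The locus thus held a transcript called higher beside a gene called lower, with Mhrt and Myh6 positive but under 2-fold (Mhrt was called without NEXN-WT 2 or NEXN-S437E 1).

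Other members called higher were less studied. 2210407C18Rik, a protein-coding gene, was at -0.49, 0.35 and 0.08 in NEXN-WT and at 1.47, 1.43 and 0.97 in NEXN-S437E, a difference of 1.31 (SE 0.25, adjusted p = 0.0989) with no overlap. Gm19689, a lncRNA, was at -3.65, -2.64 and -3.30 and at -2.22, -1.87 and -1.84 (difference 1.22, SE 0.26). The protein-coding 1700113H08Rik differed by 1.15 (SE 0.27) and 0610040J01Rik, at -0.35, 0.47 and 0.90 against 1.74, 1.42 and 1.24, by 1.13 (SE 0.31). D630045M09Rik, a lncRNA now called Eprn, was at -2.86, -3.16 and -2.88 and at -2.22, -2.13 and -1.27, a difference of 1.09 (SE 0.26). These 5 separated the groups on every array. Gm19689 and 1700113H08Rik lost the call without NEXN-WT 1 (the largest drop leaving 0.85 in 1700113H08Rik), 0610040J01Rik lost it without NEXN-WT 1 or NEXN-S437E 1, and D630045M09Rik without NEXN-WT 2 or NEXN-S437E 3.

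The remaining 4 higher calls lay between 1.00 and 1.08. They were the lncRNAs Gm6416 (1.08), 4932441J04Rik (1.04) and Gm28651 (1.02), whose groups did not overlap, and the protein-coding 2210016L21Rik (1.00), whose groups did. The other feature of 4932441J04Rik differed by 0.67 and the other features of 2210016L21Rik by 0.26 and 0.30, none of them called. The calls of Gm6416, 4932441J04Rik and Gm28651 were all lost without NEXN-WT 1, that of 4932441J04Rik also without NEXN-S437E 2 and that of Gm28651 also without NEXN-S437E 3. 2210016L21Rik was called in 2 of the 6 omissions.

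Among the members called lower and seen on all 6 arrays, Gm30873 had the largest decrease. This lncRNA was at 0.88, -1.10 and -0.69 in NEXN-WT and at -2.25, -1.99 and -1.75 in NEXN-S437E. NEXN-WT 1 was well above the other NEXN-WT arrays, the groups did not overlap, and the log2 fold change was -1.70 (SE 0.46, adjusted p = 0.161). It was -1.10 without NEXN-WT 1 and stayed a call in all 6. Its cDNA is described on the array as a clone of Arnt2, a partner of the aryl hydrocarbon receptor, but the Arnt2 feature on the minus strand, 100554 bases away, was well above background on none of the arrays.

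F830014O18Rik, a cDNA not matched to the RefSeq table, was at 1.71, 0.65 and -0.20 in NEXN-WT and at -0.40, -0.77 and -0.53 in NEXN-S437E. The groups came close without overlapping, and the difference was -1.28 (SE 0.42, adjusted p = 0.212). Without NEXN-WT 1 it was -0.79 and no longer a call.

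Of the other members called lower, 3110040M04Rik, a predicted protein-coding gene, was at 0.34, 0.23 and 0.81 against -0.34, -0.75 and -1.0, a difference of -1.16 (SE 0.23, adjusted p = 0.104) that was no call without NEXN-WT 3. D630033O11Rik, a lncRNA by RefSeq with an mRNA accession on the array, was at 1.34, 0.82 and 1.44 against -0.62, 0.53 and 0.63 (difference -1.02, SE 0.34), with no overlap. It ranged from -0.62 to -1.24 with single arrays left out and was called in 3 of the 6 omissions. 1190002F15Rik, now named Lockd and known as a lncRNA downstream of the cell cycle inhibitor gene Cdkn1b, was at 0.59, -2.00 and -0.55 against -2.20, -2.16 and -1.94. Here the groups overlapped, the difference was -1.45 (SE 0.55, adjusted p = 0.249), and it fell to -0.83 without NEXN-WT 1, where it was not a call, and it was called in 2 of the 6 omissions. The 2 Cdkn1b features differed by -0.02 and -0.15 (SE 0.21 and 0.22). 3930401B19Rik, a cDNA not matched to the RefSeq table, differed by -1.05 (SE 0.35) with overlapping groups, ranged from -0.81 to -1.45 with single arrays left out and was called in 2 of the 6 omissions.

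**Figure D2:**
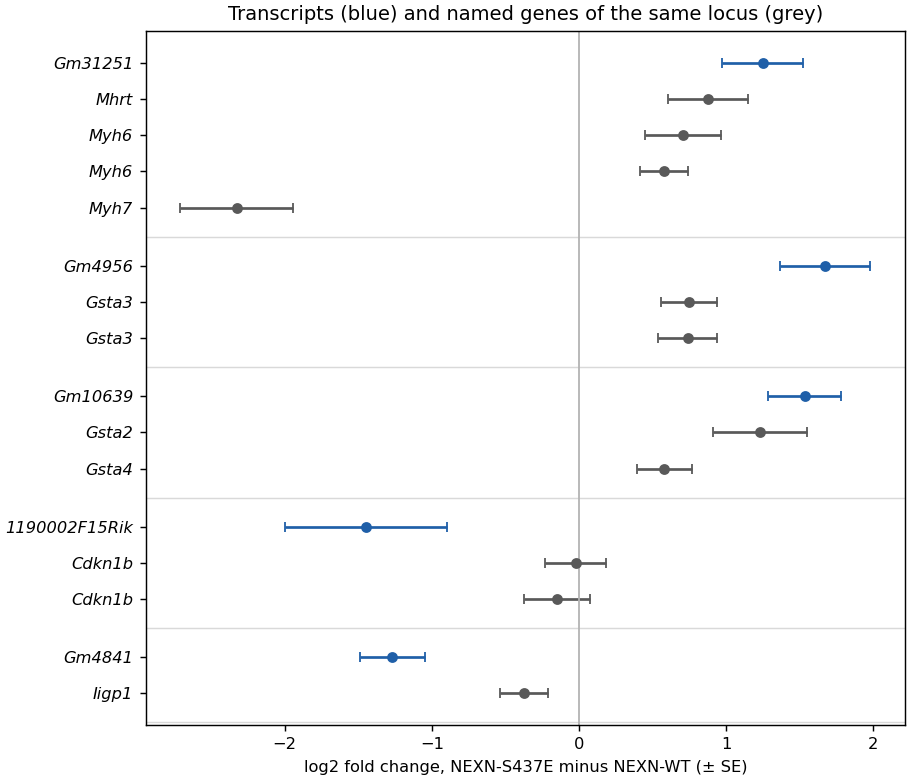
Points are log2 fold changes (NEXN-S437E minus NEXN-WT, bars ± SE of the limma fit) of 5 called members seen on all 6 arrays, in blue, and of the detected features of named genes at the same locus, in grey. Gm31251, Mhrt and Myh6 lie to the right of 0 and Myh7 at -2.33, and 1190002F15Rik at -1.45 stands beside Cdkn1b features near 0. The loci were chosen after their values were seen.

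Interferon-inducible GTPases, which attack the membranes around intracellular pathogens, are a family with several members under Gm names. Of the 9 such genes on the array 5 were detected, with 7 features, and none was called higher and 3 were called lower, where 1.78% of all 22998 features were. Of these 3 calls, 2 were features of Gm4951 that entered the set through NEXN-WT alone, so that their direction is partly built in, and 1 was seen on all 6 arrays. That one, a feature of Gm4841, was at -1.96, -1.20 and -1.30 in NEXN-WT and at -2.73, -2.61 and -2.93 in NEXN-S437E. Its values did not overlap, and the log2 fold change was -1.27 (SE 0.22, 2.41-fold, adjusted p = 0.0853), a call in all 6 omissions but not with normexp background correction, where it was -0.36. A second Gm4841 feature, at 2.82 to 3.00 and 3.04 to 3.21, differed by 0.21 (SE 0.14), and its oligonucleotide resembled those of 58 features of other symbols, the most of any member.

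Both features of Gm4951 were lower and neither was seen on all 6 arrays. The brighter one was at -0.88, -1.96 and -2.05 against -3.21, -2.65 and -2.28, and the other was seen on no NEXN-S437E array. Gm12250, which encodes Irgb10, was at -0.83, -0.45 and -0.62 against -1.13, -1.53 and -1.64, a difference of -0.80 (SE 0.19, adjusted p = 0.134) without overlap but under 2-fold. F830016B08Rik differed by 0.19 (SE 0.32) and Gm1966, a very large GTPase gene, by -0.25 (SE 0.20), both with overlapping values. Over the 5 features seen on all 6 arrays the median was -0.25 and 2 were positive. That median was -0.08 without NEXN-WT 1. Iigp1, a named gene of the same family 124111 bases from the Gm4841 feature, differed by -0.37 (SE 0.16, not called). The T and NK cell markers given above were called lower in 4 of 5 cases, and their part in these values was not tested.

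Mitochondrial genes under clone names differed by small amounts. All 6 features, from 5 genes, were seen on all 6 arrays and were positive, except 1 of them with quantile normalization, on the study's own values, with slide row as a block or without NEXN-S437E 2. The median was 0.39 and the range 0.12 to 0.56, against a median of 0.10 for all features, and none was called. Gm10012, now the pseudogene Cox7c-ps1, was at -0.41, 0.02 and 0.39 in NEXN-WT and at 0.75, 0.40 and 0.52 in NEXN-S437E, a difference of 0.56 (SE 0.22) with groups that came close without overlapping. With single arrays left out it ranged from 0.35 to 0.75. 2010107E04Rik (Atp5mpl, a small subunit of ATP synthase) differed by 0.42 (SE 0.18) and 2410015M20Rik (Micos13, of the complex that shapes the inner membrane cristae) by 0.37 (SE 0.16), with 0.27 at its other feature. The smallest difference was that of 1500011K16Rik (Mtln, a micropeptide of the inner mitochondrial membrane), at 0.12. The scaling moved this list: on the study's own normalized values its median was 0.17 with 5 of 6 positive, Atp5mpl and Micos13 being at 0.13 and 0.20, Mtln at -0.02 and Cox7c-ps1 unchanged at 0.56. With slide row as a block the median was 0.23 and the range -0.39 to 0.75. The summed cardiomyocyte markers, given above, were also higher in NEXN-S437E.

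The other lists held few detected members. Gm561 (Smim26, a small membrane protein) was at 4.92, 5.40 and 5.55 against 5.83, 5.89 and 5.88, a difference of 0.58 (SE 0.19) that was not called, and 2210013O21Rik (Nbdy, a microprotein of the mRNA decapping complex) differed by 0.06 (SE 0.15). Gm11127, an MHC class I-like gene, differed by -0.15 (SE 0.14), and its oligonucleotide was over 85% identical to those of H2-T23, H2-K1 and other class I genes. The paired receptor gene Gm14548 differed by 0.65 (SE 0.36), with overlapping groups, and by 0.37 without NEXN-WT 1 and 1.09, a call, without NEXN-WT 3. 2810417H13Rik (Pclaf, which binds the replication clamp PCNA) differed by 0.08 (SE 0.16) and 1190002N15Rik (Dipk2a, a secreted protein) by -0.12 (SE 0.16). None of these features was called with all arrays, and the sign of the Pclaf and Nbdy differences turned negative on the study's own normalized values, at -0.03 and -0.08.

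Beyond the calls, the members seen on all 6 arrays were shifted as a whole. Their median log2 fold change was 0.21, with 832 of 1133 positive (73.4%), whereas all features had a median of 0.10 with 62.9% positive. The shift was larger in lncRNAs (0.25, n = 416) and pseudogenes (0.24, n = 96) than in protein-coding members (0.15, n = 421). It was 0.24 for Gm symbols (n = 433) and 0.16 for Rik symbols (n = 700). Protein-coding features of other symbols had a median of 0.08 (n = 17473), pseudogenes of other symbols 0.12 (n = 57), lncRNAs of other symbols 0.16 (n = 115) and other or unmatched features 0.23 (n = 136). These medians have no test, since features of 1 array are not replicates.

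The order of these medians was similar within parts of the signal range. When all features on all 6 arrays were cut into 3 equal parts by mean signal, the members' median was 0.18, 0.18 and 0.27 from dim to bright and that of all features 0.07, 0.04 and 0.18. The lncRNA members had medians of 0.25, 0.20 and 0.34 in the same parts and the protein-coding members 0.12, 0.13 and 0.23. The scaling moved the members and all features together. With quantile normalization and with the study's own values the members' median was 0.14 and that of all features 0.04, and the gap between members and all features was 0.08 to 0.13 in every setting tried. Without NEXN-WT 1 the members' median was 0.15, all features 0.06, lncRNA members 0.16 and protein-coding members 0.13, so that most of the gap between lncRNAs and protein-coding members was gone. By array, the median level of lncRNA members was -1.35, -1.08 and -1.05 in NEXN-WT and -0.96, -0.93 and -0.88 in NEXN-S437E, so NEXN-WT 1 was the lowest. For protein-coding members it was -0.15, -0.19 and -0.22 against -0.14, -0.03 and -0.06, with NEXN-WT 1 the highest NEXN-WT array. The median of all features was 0.54 to 0.57 in NEXN-WT and 0.59 in each NEXN-S437E array. In each of these sets the groups did not overlap.

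**Figure D3:**
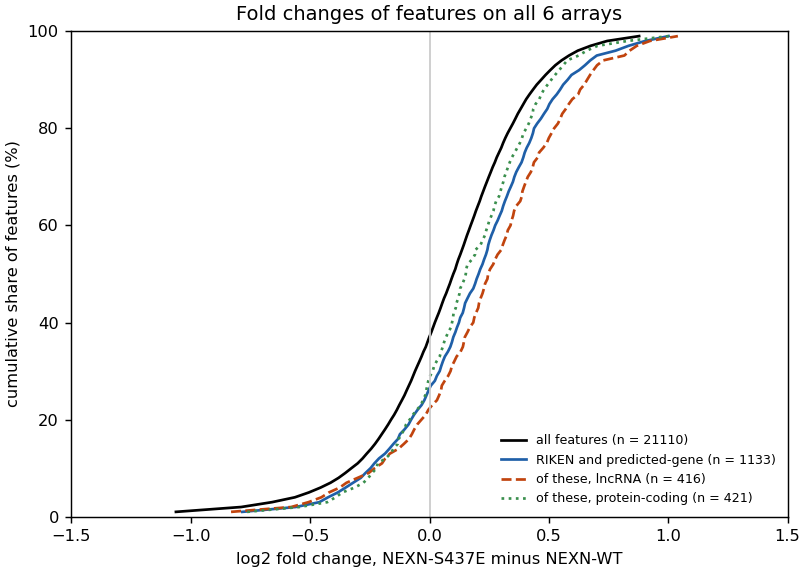
Curves give the cumulative share of features (vertical axis, %) against the log2 fold change (horizontal axis, NEXN-S437E minus NEXN-WT) for all 21110 features seen on all 6 arrays, the 1133 members among them, and their lncRNAs and protein-coding genes. The members' curve lies to the right of that of all features, with medians of 0.21 and 0.10, and the lncRNAs lie farthest right at 0.25.

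Replicates of the members were spread slightly more widely than those of other features, more so in NEXN-WT. The median SD over 3 animals was 0.27 in NEXN-WT and 0.16 in NEXN-S437E for the members, and 0.23 and 0.15 for all features. By chromosome the members' median log2 fold change ranged from 0.06 on the X (n = 32) to 0.32 on chromosome 16 (n = 29).

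Members that were well above background in 1 group only entered the set through that group, so their values are given with no test. A fold is stated as a lower bound, in which each array of the dim group counts at least at the lowest signal that was well above background on it (-4.00 to -3.55 in NEXN-WT, -3.50 to -3.08 in NEXN-S437E). Some members seen only in NEXN-WT had bounds below 1, down to 0.83 with all arrays, so no lower level is shown for them. The share of spots well above background was 44.4% to 47.8% in NEXN-WT and 41.9% to 45.6% in NEXN-S437E, and its part in these counts was not tested.

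1500015O10Rik, now Ecrg4, encodes a precursor of secreted peptides and had the largest bound of these members. It was at 3.00, -0.86 and -0.55 in NEXN-WT and at -3.35, -3.56 and -4.68 in NEXN-S437E, where none of the arrays had it well above background. NEXN-WT 1 was far above the other NEXN-WT arrays, and even the lowest of these was above every NEXN-S437E array. The expression was at least 13.9-fold lower in NEXN-S437E, and at least 5.92-fold with NEXN-WT 1 left out. The nearest named gene, Uxs1 on the opposite strand, differed by 0.13 (SE 0.17). Of the fibroblast markers given above 3 of 6 were called lower, and their part in this value was not tested.

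Gm15867, the lncRNA whose oligonucleotide holds an AATAAA shown above, was at -0.82, -3.28 and -2.34 in NEXN-WT and at -4.80, -3.70 and -4.87 in NEXN-S437E, at least 2.18-fold lower, or 1.38-fold without NEXN-WT 1. Sertad4, a named gene 10996 bases away on the other strand, was at 0.10, -0.18 and -0.55 against -1.04, -1.02 and -0.85, a difference of -0.76 (SE 0.19, not called). Gm41257, a lncRNA on chromosome 15, was at -2.35, -2.33 and -3.05 against -4.00, -4.29 and -4.18, at least 1.62-fold lower. The fainter Gm4951 feature was at least 1.53-fold lower and Gm4788, a protein-coding gene, at least 1.35-fold, though without NEXN-WT 1 no bound above 1 was left for Gm4788. For 4930427A07Rik (Tedc1) and 9530077C05Rik the bounds were 1.05 and 1.18, that of Tedc1 not exceeding 1 without NEXN-S437E 2, and with normexp background correction their log2 fold changes turned positive, at 0.12 and 0.11.

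In the opposite direction 4 members were seen in NEXN-S437E only. Gm36703 was at -4.93, -3.22 and -3.69 in NEXN-WT and at -2.36, -1.99 and -2.03 in NEXN-S437E, at least 2.76-fold higher. Gm19522 was at -4.26, -5.82 and -4.11 against -2.87, -2.71 and -2.76, at least 1.90-fold higher, and Gm32461 at -4.79, -3.63 and -5.69 against -2.83, -3.07 and -3.04, at least 1.65-fold. All 3 are lncRNAs, and their NEXN-S437E values lay not far above the lowest signal counted as well above background. A feature of D230025D16Rik, a protein-coding gene, was at least 1.67-fold higher, whereas its other feature, seen on all 6 arrays, differed by 0.13 (SE 0.20) with overlapping groups.

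**Figure D4:**
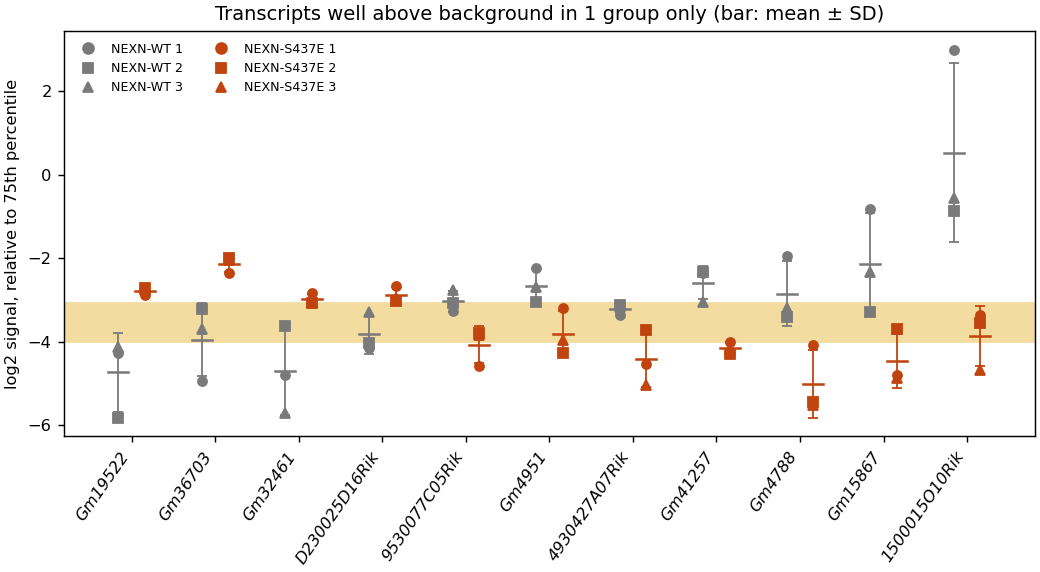
Points are the log2 signals of single arrays (grey NEXN-WT, orange NEXN-S437E, bars mean ± SD of 3 animals) for 11 features well above background in 1 group only, ordered by their difference. The shaded band spans the lowest signals counted as well above background, -4.00 to -3.08 over the 6 arrays, and all but 1500015O10Rik have their detected values within a few log2 units of it.

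Members seen on all arrays of 1 group and on 1 or 2 of the other lay between these extremes, and the choice by detection also bears on them. Some of their values lie below the lowest signal counted as well above background, so the differences are not exact. Gm10635, a lncRNA, was at -4.56, -2.49 and -3.32 in NEXN-WT and at -1.31, -1.55 and -1.20 in NEXN-S437E, a difference of 2.10 in the values as measured. The lncRNAs Gm30382 (1.66), 2310020H05Rik (1.60, or 1.03 without NEXN-WT 1) and 2310075C17Rik (1.47) and E030046B03Rik (1.47), which was not matched to the RefSeq table, had groups that did not overlap. As they entered the set through NEXN-S437E, where they are high, that separation is partly built in. E030046B03Rik ranged from 0.80 to 2.01 with single arrays left out and was called in 3 of the 6 omissions. Among the lower ones, 6330403K07Rik was at -0.65, -1.89 and -1.56 against -2.92, -3.39 and -2.71, a difference of -1.64. 1700038P13Rik, on the plus strand 9107 bases from Cyp1b1, a cytochrome P450 gene that was called lower at -1.17 (SE 0.36) but was no call without NEXN-WT 1 (-0.72), was at -0.70, -2.48 and -2.12 against -3.30, -3.36 and -3.27, a difference of -1.54 (-1.01 without NEXN-WT 1), and its other feature differed by -0.95 without a call. E030003E18Rik differed by -1.51 and was no call without NEXN-WT 1 or NEXN-S437E 1. Over all 1340 members 45 were called (27 higher, 18 lower), 3.36% against 2.52% of all 22998 features, and as detection in 1 group helped to choose them nothing is read from this share.

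Members were also set beside their neighbouring genes. For 287 member genes a detected gene with a symbol outside the set lay within 10000 bases, making 327 pairs, of which 109 shared a strand. Pearson's r over the 327 pairs was 0.06 and Spearman's rho 0.15, as a description over features that share the same 6 arrays. Gm1987 (-0.90) lay 211 bases from Ccl21a (-1.17, called lower, but -0.83 and no call without NEXN-WT 1, and no call without NEXN-S437E 2). With 1700038P13Rik and Cyp1b1 both were called, but without NEXN-WT 1 only 1700038P13Rik stayed a call. A strongly changed neighbour could also stand beside a member that barely differed, as with Slc13a4 (-3.17) and 1810058I24Rik (-0.03 and 0.00). Between members themselves 32 pairs lay within that distance.

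**Figure D5:**
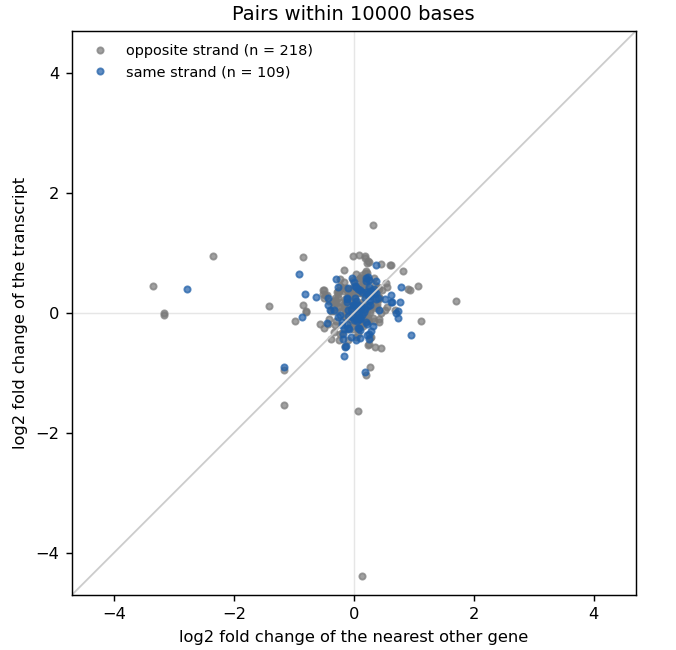
Each point is a member and its nearest detected gene with a symbol outside the set, within 10000 bases, with log2 fold changes (NEXN-S437E minus NEXN-WT) of the gene on the horizontal and of the member on the vertical axis, blue for the same strand (109 pairs) and grey for opposite strands (218 pairs). Most points cluster near the origin without following the diagonal, and the neighbour at -3.17 has a member near 0.

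Different features of 1 gene mostly gave similar values. For 111 member genes 2 to 5 features were seen on all 6 arrays, and the range of their log2 fold changes had a median of 0.18. In 36 genes the signs differed. The largest range, 1.48, was that of Gm4841, whose brighter feature resembles many others. In all, 126 members had an oligonucleotide at least 85% identical over at least 30 bases to one of another symbol on the same strand, and Gm10639 was the single called member among them.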

How the data were processed

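Total RNA of 6 hearts (NEXN-WT, 3 animals; NEXN-S437E, 3 animals) was labelled with Cy3 and hybridised to Agilent SurePrint G3 mouse 8x60K arrays. The authors deposited intensity values per spot, extracted with Agilent Feature Extraction 10.7.1.1 (background-subtracted processed signals with detection flags), and a table of log2 values that they had normalized between arrays, with probe annotation on mm9. The processed signals were used here: outlier spots were dropped, log2 was taken, the array's 75th percentile over non-control spots was subtracted and spots of a probe were averaged. A probe was kept when well above background on all 3 arrays of a group. limma 3.58.1 (R 4.3.3) was fitted over 22998 kept probes with group as the only term, and p-values were adjusted by Benjamini-Hochberg over all of them. On simulated data made from these arrays, 98 of 100 probes shifted by 1.5 (log2) passed an adjusted p of 0.05, with 11 false calls among the unshifted probes. With no probe shifted, 31 of 22987 passed 2-fold and an unadjusted p of 0.05 in limma. The simulated noise was independent and of equal spread on all 6 arrays. Since it holds no outlying array like NEXN-WT 1, it does not measure the sensitivity in the real data.

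Current symbols and transcript types came from the RefSeq table (GRCm38.p6), used for names and strands only. Oligonucleotides were compared with blastn 2.17.0, and the positions are those of the array. The members, gene lists, loci and printed sequences were chosen with earlier results of these data known. Members named were the 8 largest increases and up to 8 decreases (there were 5) called without overlap among those seen on all 6 arrays, the 4 largest bounds in each direction among those seen in 1 group, and up to 3 of each list. Other called members and the loci were added after their values were seen. Interferon GTPase, MHC class I-like, paired receptor, cell division, mitochondrial, small membrane and secreted protein lists were used. Alternatives covered the normalization, background correction, filters, test, blocks, and leaving out each array. A few genes are not reported here. The number of arrays limits the precision. All arrays were on 1 slide, with NEXN-S437E 1 sharing its first row with all of NEXN-WT.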

Additional observations from a re-analysis of the deposited data

How the results depend on the processing

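The members' median log2 fold change of 0.21 ranged from 0.13 (percentile over detected probes) to 0.24 (without NEXN-WT 3) over the alternatives. The 19 called members seen on all 6 arrays became 5 (4 lower) with normexp background correction, which adds an offset of 50 to each signal, and over all features seen on all 6 arrays 342 became 166. With the methods' t-test 13 members were called, 2 of them lower, and over all features 257, 182 of them lower. With that test on the study's own normalized values, an alternative added after the data were seen, 13 members were called, 3 of them lower. Over all features that setting gave 266, 198 of them lower. With arrays left out in turn the called members ranged from 11 to 38, the lower ones from 3 to 8 and those past an adjusted p of 0.05 from 0 to 1. The last number was 1 with slide row as a block, 2 with an intensity trend and 228 with array weights, which gave NEXN-WT 1 a weight of 0.20 and NEXN-WT 2 one of 4.22. Over all features seen on all 6 arrays these settings gave 6, 55 and 3323, and the cause was not tested. Among features seen on all 6 arrays those past the adjusted threshold were 20 in the reported fit, 1 with no filter on dim probes and 92 without NEXN-WT 1.

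Of the 45 called members 25 stayed called with array weights, 4 with normexp, 30 with the slide row block, 31 with the methods' t-test and 27 without NEXN-WT 1. Only 19 of the 45 were seen on all 6 arrays. Detection in 1 group helped to choose the others, so their calls are partly built in and these counts do not measure robustness. With normexp, 9530077C05Rik turned to 0.11 and 4930427A07Rik to 0.12. The uncalled 2810417H13Rik was at -0.025 with quantile normalization and on the study's own values by either test, -0.056 with normexp, -0.073 with array weights and from -0.025 to 0.16 with arrays left out in turn, the lowest without NEXN-WT 3. The uncalled 2210013O21Rik was at -0.075 with quantile normalization and on the study's own values by either test, -0.014 with the percentile over detected probes and from -0.00076 to 0.16 with arrays left out, the lowest without NEXN-WT 1. Same-numbered arrays did not deviate together (correlations of -0.15, -0.03 and -0.18). With 3 arrays a group this cannot show that the animals were unpaired, and the reported fit used no pairing. With the replicate block 19 members were called, 7 lower, none past the adjusted threshold, with a median of 0.21. The bounds of members seen in 1 group were also computed with each array left out, an alternative added after the data were seen, and the bound of 1500015O10Rik ranged from 5.92 to 22.6. Low signal limits these members, and arrays of 3 animals a group limit all comparisons.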
